A study of Homo sapiens with 9 samples.

Results

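EA20TMZ580 was compared with EA20TMZ380, which differ in the concentration of temozolomide (TMZ) at the same concentration of evernic acid (EA). The libraries were chosen by their treatment labels and make up 5 of the 9 libraries of the series. They are 3 untreated controls of U-87 cells, 1 library of cells given 20 µM EA with 380 µM TMZ, and 1 library of cells given 20 µM EA with 580 µM TMZ. All treated cells were exposed for 24 h. U-87 is an established human glioblastoma line, grown here in medium with serum. The measured features were RefSeq transcripts, and 617 of the 159067 transcripts in the table had a mean of at least 10 counts over these 5 libraries and were tested. A gene symbol was found for 516 of them. The labels give 1 library for each combination and do not say whether the controls came from separate cultures, so the p-values below measure only the spread between the 3 control libraries, which may be technical.

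TMZ is an alkylating drug that methylates DNA bases, and it is the standard chemotherapy of glioblastoma. Unrepaired methyl groups on guanine lead to mismatched bases, strand breaks and arrest of the cell cycle. EA is a depside, a phenolic compound made by the lichen Evernia prunastri. The study combined both to test whether EA changes the response of U-87 cells to TMZ, and the comparison here asks which transcripts differed when the TMZ concentration was raised and EA was held constant.

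The controls held 269057, 259753 and 285248 counts, EA20TMZ380 held 367291 and EA20TMZ580 held 330759. Counting error alone allows up to 3 counts for a row at 0, or 9.57 CPM (counts relative to the size of the library, after TMM scaling) in EA20TMZ580 and 10.2 CPM in EA20TMZ380. The table lists many genes of tumour cells at 0, so it could check the labelled cell type only in part. Of 19 markers of mesenchymal or astroglial tumour cells, 4 had any count, and their summed counts were 161, 174 and 178 in the controls, 46 in EA20TMZ380 and 26 in EA20TMZ580. Nearly all of these were counts of 1 gene, NES, with 152, 169 and 174, and then 44 and 20. VIM, CD44 and GFAP were among those listed at 0. Markers of neurons summed to between 0 and 3 counts per library, those of endothelial cells to between 1 and 5, and those of microglia to 0. The part of the lower NES counts in the results below was not tested, and in these bulk samples fewer cells of a type and less RNA per cell cannot be told apart.

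Between the TMZ concentrations, 55 of 617 transcripts differed (8.91%), of which 18 were higher in EA20TMZ580 (2.92%) and 37 were lower (6%). The differences included a fall in TCF7L1, a transcription factor of the Wnt pathway, rises in the adhesion protein talin (TLN1), the signalling adaptor PELI2 and the mitochondrial ATP8, and falls in the mitochondrial ND4L and ND3. These are calls of edgeR's quasi-likelihood test with a Benjamini-Hochberg adjusted p under 0.05, in a fit where the spread came from the controls and each lone library was assumed to vary like them. An unadjusted p under 0.05 was found for 138 transcripts. The balance of rises and falls depended on scaling. With the TMM factors of all 9 libraries it was 32 rises and 23 falls, with library totals 38 and 16, and with DESeq2's size factors 23 and 35. The median log2 fold change of all 617 transcripts was -0.12 with TMM and 0.12 with library totals. In 4 other fits with another scaling, 1 of which also used all 9 libraries and 1 of which left out the mitochondrial transcripts, all 18 rises and 15 of the 37 falls were called in each fit that held them. The number of calls also depended on the controls. With 1 control left out and TMM repeated, there were 37 rises and 37 falls without control 1, 26 and 9 without control 2, and 33 and 23 without control 3. With the scaling kept instead, there were 15 and 43, 12 and 22, and 1 and 1, while an unadjusted p under 0.05 was found for 149, 125 and 128 transcripts. The calls kept without control 3 were TCF7L1 (edgeR adjusted p = 0.0113) and ATP8 (0.0375). For single genes, calls are tallied below over 11 alternatives of scaling, test, filter and libraries. A limit of 1 on the size of the log2 fold change, which 19 of the 55 passed, is not part of this tally, nor are the fits with the scaling kept.

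By size, 117 transcripts (19%) lay at least 2-fold apart in the pair of treated libraries, 54 higher and 63 lower in EA20TMZ580 (79 and 36 with library totals). The same count between pairs of controls was 49, 41 and 33. The SD of the log2 ratio was 0.779 between the treated libraries and between 0.559 and 0.623 among the controls. Most of these transcripts had low counts, and among the 305 that averaged 50 counts or more 21 were 2-fold apart, against 4, 4 and 2 among the controls.

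**Figure D1:**
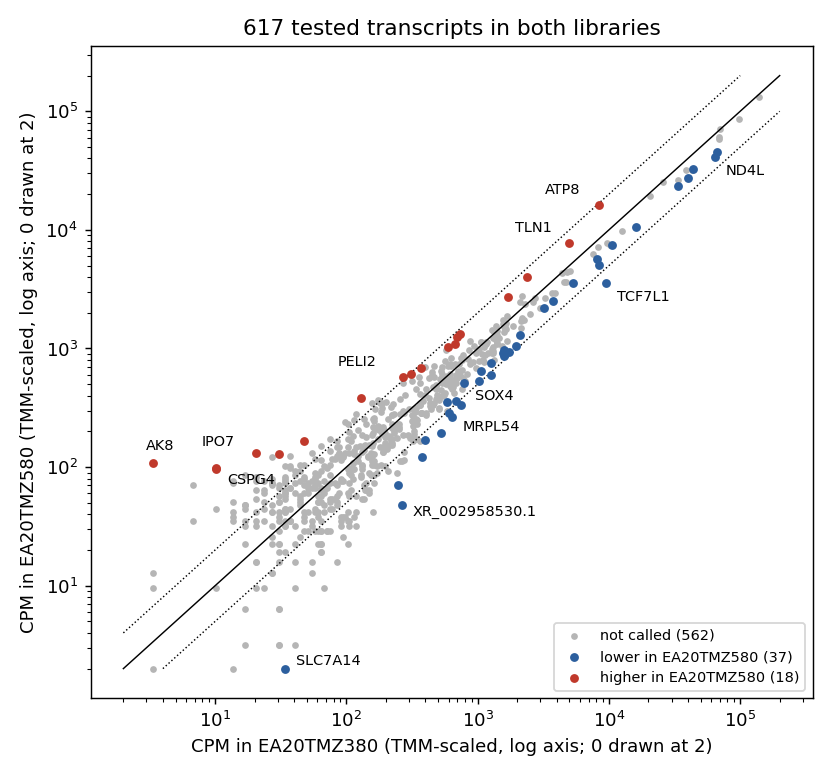
CPM of the 617 tested transcripts in EA20TMZ380 (x axis) and EA20TMZ580 (y axis), both on log axes after TMM scaling. The solid line marks equality and the dotted lines a 2-fold difference, and the 18 rises and 37 falls called by edgeR are coloured. TCF7L1 and ATP8 stand off the diagonal among abundant transcripts, and AK8, CSPG4 and SLC7A14 rest on few counts in 1 library.

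Compared with the controls in the same fit, EA20TMZ380 differed in 164 transcripts (26.6%) and EA20TMZ580 in 149 (24.1%). The directions depended on scaling, with 91 higher and 73 lower in EA20TMZ380 and 64 and 85 in EA20TMZ580, but 39 and 163, and 42 and 119, with library totals. Both differed from the controls in 80 transcripts, with 0 in opposite directions, and these comparisons share the same controls. Among the 18 rises, EA20TMZ380 lay below every control in 17, against 37.6% of all tested transcripts, and EA20TMZ580 lay within or above the range of the controls in 14, against 61.6%. These counts are a description, since a rise is in part chosen by a low value in EA20TMZ380. A call against the controls was made in EA20TMZ380 alone for 13 of the rises, in EA20TMZ580 alone for 3, in both for 0 and in neither for 2. Over all 617 tested transcripts these numbers were 84, 69, 80 and 384. The choice of rises also favours calls in EA20TMZ380 alone. The falls were more mixed. Of the 37, EA20TMZ580 lay below every control in 27, against 38.4% of all tested transcripts, and EA20TMZ380 above every control in 23, against 39.9%, and the choice of falls favours both. The values of both libraries beside the controls are given for each group of genes below, after TMM scaling. With library totals, EA20TMZ380 changed its place relative to the range of the controls in 1 rise and 14 falls, and EA20TMZ580 in 5 rises and 4 falls. Among the genes described below, EA20TMZ580 was then below every control in MAP3K9, PYHIN1, TPR, RRAGA, MED28 and UQCR11, and within their range in AK8 and CSPG4. EA20TMZ380 was then below every control in MRPL54, PA2G4, SLC25A40, CCNO, WDR93, RPS6, POLR2L, SNORD72, LINC02022 and ND3, and within their range in SAMMSON, FCGBP and RPLP2.

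TCF7L1 (NM_031283.3, chromosome 2, 85133392 to 85310387 in GRCh38.p14) had the smallest p-value of the comparison. It encodes a TCF/LEF protein that binds DNA and, without beta-catenin, represses Wnt target genes. It had 10031, 9942 and 10000 CPM in the controls, 9523 in EA20TMZ380 and 3571 in EA20TMZ580. After TMM scaling EA20TMZ380 was thus close to the controls, though below each of them, with a log2 fold change of -0.07 (edgeR adjusted p = 0.681). EA20TMZ580 was far below them at -1.48 (edgeR adjusted p = 1.71e-08). Between the concentrations the log2 fold change was -1.41 (standard error, SE, of 0.14, edgeR adjusted p = 2.05e-06), a 2.67-fold lower level in EA20TMZ580. It was called under all 11 alternatives. The closeness of EA20TMZ380 to the controls depended on scaling. With library totals it had 7642 CPM and EA20TMZ580 had 3386, against 10901, 10522 and 10531 in the controls.

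Of 76 listed Wnt pathway genes, 5 could be tested, and TCF7L1 was the 1 member called, where 8.91% of all tested transcripts were. FZD7, a Wnt receptor, had 104, 143 and 114 counts in the controls, 52 in EA20TMZ380 and 65 in EA20TMZ580. Both treated libraries lay below the controls, and their difference from each other was 0.23 on the log2 scale (95% interval -0.60 to 1.07). WNT5A, a ligand mostly linked to beta-catenin-independent signalling, had 169, 187 and 179 counts in the controls, 206 and 176 in the combinations, with a difference of -0.32 (95% interval -0.80 to 0.17). DKK4, a secreted inhibitor, had 9 and 11 counts in the combinations. TLE6, a member of the TLE family counted on a RefSeq noncoding transcript, had 5 and 2. For both of these the 95% interval spanned more than 3 log2 units, so the counts could not show whether they changed. The median of the 5 members was -0.32, beside -0.12 for all transcripts.

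The promoters of TCF7L1 and PELI2 are shown because these genes carried a fall and a rise that were called under all 11 alternatives of the tally. Each runs from 250 bases before to 50 bases after the gene's start in RefSeq (GRCh38.p14), 5′ to 3′ on the plus strand, at chr2:85133142-85133441 and chr14:56118161-56118460. Capitals mark the GC box, GGGCGG on either strand, a sequence bound by SP family factors. Overlapping matches run together.
TCF7L1: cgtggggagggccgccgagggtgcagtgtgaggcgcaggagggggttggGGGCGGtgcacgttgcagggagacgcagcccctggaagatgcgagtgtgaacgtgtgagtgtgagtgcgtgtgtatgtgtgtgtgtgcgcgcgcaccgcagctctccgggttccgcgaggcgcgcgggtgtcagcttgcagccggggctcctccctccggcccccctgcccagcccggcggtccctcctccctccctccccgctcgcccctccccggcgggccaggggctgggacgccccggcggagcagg
PELI2: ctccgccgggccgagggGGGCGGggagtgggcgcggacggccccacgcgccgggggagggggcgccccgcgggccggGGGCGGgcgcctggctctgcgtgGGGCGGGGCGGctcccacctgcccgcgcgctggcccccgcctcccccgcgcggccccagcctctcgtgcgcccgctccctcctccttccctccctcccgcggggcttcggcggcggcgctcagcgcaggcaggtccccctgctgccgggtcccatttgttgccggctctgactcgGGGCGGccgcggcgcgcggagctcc
The GC box occurred once in the TCF7L1 promoter and 5 times in that of PELI2. Neither held the TCF/LEF core CTTTGA, and both also lacked the TATA box (TATAAA), the E-box (CACGTG) and the cyclic AMP response element (TGACGTCA), each searched on both strands. GGGCGG was present in 44.6% of 27305 promoters, and in 11 of 14 promoters of genes that rose and 10 of 22 of genes that fell, beside 215 of 356 of the genes tested. These matches are a description of the letters in the window, and which start site U-87 cells use was not measured.

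PELI2, an E3 ubiquitin ligase of the Pellino family in interleukin-1 and Toll-like receptor signalling, rose on 2 separately counted transcripts. The first (XM_017021479.1) had 1949, 1681 and 1458 CPM in the controls, 699 in EA20TMZ380 and 1240 in EA20TMZ580, a log2 fold change of 0.83 between the concentrations (SE 0.21, edgeR adjusted p = 0.0187). The second (XM_011536992.3) had 787, 629 and 629 CPM in the controls, 268 in EA20TMZ380 and 577 in EA20TMZ580, a log2 fold change of 1.11 (SE 0.27, edgeR adjusted p = 0.018). Both transcripts were below every control in each combination and nearer to them at the higher TMZ concentration. The transcripts belong to 1 gene and are not independent.

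TLN1, which links integrins to the actin cytoskeleton, had 8164, 8436 and 8642 CPM in the controls, 5008 in EA20TMZ380 and 7803 in EA20TMZ580. Its log2 fold change between the concentrations was 0.64 (SE 0.14, edgeR adjusted p = 0.0132), and it was called under all 11 alternatives. PYHIN1, an interferon-inducible protein of the HIN-200 family, followed the same order, with 1604, 1593 and 1248 CPM in the controls, 736 in EA20TMZ380 and 1317 in EA20TMZ580 (log2 fold change 0.84, edgeR adjusted p = 0.0187). In MAP3K9, a kinase upstream of JNK, EA20TMZ380 was low at 1706 CPM and EA20TMZ580, at 2694 CPM, was close to the controls with 2394, 2576 and 2676 CPM. Its log2 fold change was 0.66 (edgeR adjusted p = 0.0187). In these 3 genes EA20TMZ380 lay farther from the controls than EA20TMZ580. The edgeR adjusted p against the controls was between 8.67e-05 and 0.00416 in EA20TMZ380 and between 0.522 and 0.734 in EA20TMZ580. EA20TMZ580 was still below every control in TLN1 and, with library totals, in all 3 genes.

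TPR, a nuclear pore protein, and LSM3, a subunit of the complex that binds U6 RNA and of the mRNA decay complex, had 110 and 91 counts in EA20TMZ380 and 216 and 190 in EA20TMZ580. Their log2 fold changes were 0.88 and 0.97 (edgeR adjusted p = 0.0289 and 0.0299), and both had EA20TMZ580 within the range of the controls.

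Further rises rested on few counts in EA20TMZ380 or on a low transcript. AK8, an adenylate kinase, had 28, 29 and 20 counts in the controls, 1 in EA20TMZ380 and 34 in EA20TMZ580, a ratio of 32 with a counting interval of 5.36 to 1299. CSPG4, the proteoglycan NG2 found on glial progenitors and glioma cells, had 16, 19 and 27 counts in the controls, 3 in EA20TMZ380 and 31 in EA20TMZ580 (ratio 9.71, interval 3.03 to 49.6). GPR26, an orphan receptor of the brain, had 7, 11 and 13 counts in the controls, 3 and 30 in the combinations (ratio 9.4, interval 2.92 to 48.1). Their adjusted p-values were between 0.00618 and 0.041 in edgeR, and in all 3 EA20TMZ580 lay above every control. IPO7, a nuclear import receptor, had 27, 18 and 22 counts in the controls, 6 in EA20TMZ380 and 41 in EA20TMZ580 (log2 fold change 2.66, edgeR adjusted p = 0.0187). TECPR2, which takes part in autophagy, and LHX3, a LIM-homeobox transcription factor, rose by 1.79 and 2.05 on the log2 scale, from 14 and 9 counts to 52 and 40. Of the 9 alternatives that gave a value, AK8 was called in 9, CSPG4 and IPO7 in 8, and GPR26, TECPR2 and LHX3 in 7, and limma-voom called AK8 alone of these 6. A second LHX3 transcript had 36 and 64 counts and was not called (edgeR adjusted p = 0.332).

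In 3 other rises EA20TMZ580, and not EA20TMZ380, was called against the controls after TMM scaling. With library totals EA20TMZ380 lay below every control in all 3, and EA20TMZ580 was above every control with either scaling. WDR93, a WD-repeat protein, had 3133, 2299 and 2124 CPM in the controls, 2395 in EA20TMZ380 and 4021 in EA20TMZ580 (log2 fold change 0.75, edgeR adjusted p = 0.0289). TYRO3, a receptor tyrosine kinase of the TAM family, had 681, 797 and 699 CPM in the controls, 672 in EA20TMZ380 and 1100 in EA20TMZ580 (log2 fold change 0.71, edgeR adjusted p = 0.0344). HTATSF1P2, a pseudogene, had between 732 and 757 CPM in the controls, 590 in EA20TMZ380 and 1020 in EA20TMZ580, and its reads may be shared with its parent gene. Against the controls, the edgeR adjusted p of these 3 was between 0.00413 and 0.0423 in EA20TMZ580.

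**Figure D2:**
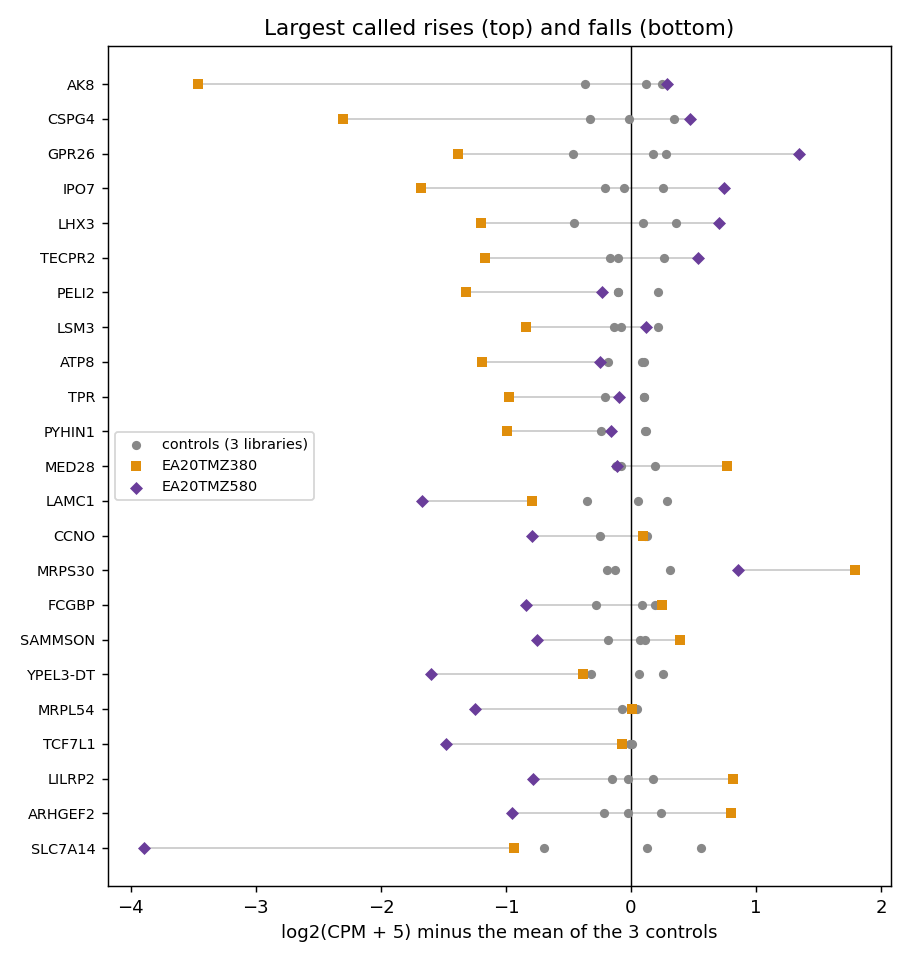
Of the 12 largest called rises 11, and the 12 largest called falls, with a gene symbol (y axis), each as log2(CPM + 5) minus the mean of the 3 controls (x axis). Grey points are the controls, squares EA20TMZ380 and diamonds EA20TMZ580, with 1 library each. Among these rises EA20TMZ380 lies left of the controls, whereas the falls include genes with EA20TMZ580 left of the controls and others, such as MRPS30 and MED28, with EA20TMZ380 right of them.

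Among the falls, a first group resembled TCF7L1 after TMM scaling, in that EA20TMZ580 lay below every control and EA20TMZ380 was not called against them. MRPL54, a protein of the mitochondrial ribosome, had 605, 644 and 659 CPM in the controls, 641 in EA20TMZ380 and 265 in EA20TMZ580 (log2 fold change -1.28, SE 0.25, edgeR adjusted p = 0.00767). SAMMSON, a long noncoding RNA best known from melanoma, had 499, 615 and 599 CPM in the controls, 746 in EA20TMZ380 and 335 in EA20TMZ580 (log2 fold change -1.16, edgeR adjusted p = 0.0132). Both were called under all 11 alternatives. FCGBP, an IgG Fc-binding protein of mucus, had 1218, 1131 and 879 CPM in the controls, 1269 in EA20TMZ380 and 593 in EA20TMZ580 (log2 fold change -1.10, edgeR adjusted p = 0.00802). PA2G4, a growth-regulating protein that binds ErbB3, and SLC25A40, a mitochondrial carrier, fell by 0.82 and 0.86 on the log2 scale, both with an edgeR adjusted p of 0.0132. SLC7A14, an amino acid transporter-like protein, had 12, 29 and 23 counts in the controls, 10 in EA20TMZ380 and 0 in EA20TMZ580. With the 0 set to the limit of 3 counts the ratio was 3.55, which leaves out the counting error of the 10 counts. Its edgeR adjusted p was 0.0497, a call made in 6 of 9 alternatives that gave a value. PA2G4 was called in 7 of 11 alternatives and SLC25A40 in 9. CCNO, an atypical cyclin, and MT1B, a metallothionein, fell by 0.90 and 0.71 on the log2 scale but were called in 2 of 11 alternatives each. The CCNO row was a RefSeq noncoding transcript of the gene, and MT1B is one of a family of near-identical genes whose reads may be split.

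A second group was below the controls in both combinations and lower still in EA20TMZ580. XR_002958530.1, an RNA for which no symbol was found, was picked after its values were seen because its p-value was second only to that of TCF7L1. It had 252, 287 and 291 counts in the controls, 78 in EA20TMZ380 and 15 in EA20TMZ580, a log2 fold change between the concentrations of -2.46 (SE 0.35, edgeR adjusted p = 0.000235). LAMC1, the laminin gamma 1 chain of basement membranes, had 2661, 3529 and 4145 CPM in the controls, 1954 in EA20TMZ380 and 1059 in EA20TMZ580 (log2 fold change -0.88, edgeR adjusted p = 0.0187). SVOP, a synaptic vesicle protein, had 2042, 2848 and 2753 CPM in the controls, 1591 in EA20TMZ380 and 867 in EA20TMZ580 (log2 fold change -0.88, edgeR adjusted p = 0.018). SOX4, a transcription factor of progenitor and tumour cells, had already dropped by 2.41 on the log2 scale in EA20TMZ380 relative to the controls. It had 3926, 4489 and 4228 CPM there, 794 in EA20TMZ380 and 507 in EA20TMZ580. The further change between the concentrations was -0.65 (edgeR adjusted p = 0.0381), called in 2 of 11 alternatives. NES, or nestin, an intermediate filament of neural progenitors and the only tumour cell marker tested, was below the controls in both combinations and did not pass between them (log2 fold change -1.22, edgeR adjusted p = 0.0662).

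Another group was above the controls in EA20TMZ380 and lower, toward the controls, in EA20TMZ580. RRAGA, a Rag GTPase that brings mTORC1 to the lysosome, had 4504, 5489 and 4700 CPM in the controls, 8478 in EA20TMZ380 and 5022 in EA20TMZ580 (log2 fold change -0.76, SE 0.16, edgeR adjusted p = 0.011). TALDO1, transaldolase of the pentose phosphate pathway, had 2319, 2077 and 1848 CPM in the controls, 5350 in EA20TMZ380 and 3533 in EA20TMZ580 (log2 fold change -0.60, edgeR adjusted p = 0.0312). MRPS30, a mitochondrial ribosomal protein, had 78, 70 and 109 counts in the controls, 301 and 167 in the combinations (log2 fold change -0.94, edgeR adjusted p = 0.0344). TALDO1 and MRPS30 were each called in 4 of 11 alternatives, and RRAGA in 9. EA20TMZ580 remained above every control for TALDO1 and MRPS30 and, after TMM scaling, lay within their range for RRAGA. MED28, a Mediator subunit, fell by 0.88 on the log2 scale, to within the range of the controls after TMM scaling. ARHGEF2, a microtubule-associated protein, and LILRP2, a pseudogene of the leukocyte immunoglobulin-like receptors, were outside this group. They fell by 1.81 and 1.63 on the log2 scale, from above every control to below every control, and neither was called against the controls in EA20TMZ380 (edgeR adjusted p = 0.111 and 0.0693) or in EA20TMZ580 (0.1 and 0.134).

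Several abundant transcripts fell by smaller amounts that depended on scaling. RPLP2 and RPS6, proteins of the cytosolic ribosome, had log2 fold changes of -0.55 and -0.43, or -0.43 and -0.30 relative to the median of all transcripts, and were called in 6 and 3 of 11 alternatives. The only other ribosomal protein tested, RPL37, had 13 and 16 counts in the combinations and was not called. POLR2L, a subunit shared by the RNA polymerases, fell by 0.51 on the log2 scale and UQCR11, a subunit of respiratory complex III, by 0.53, each called in 4 of 11 alternatives. The interferon-induced IFITM1 and IFITM2, membrane proteins that restrict virus entry, fell by 0.73 and 0.55 on the log2 scale but were called in 0 and 1 of 11 alternatives, and BST2 was not called. IFITM1 and IFITM2 are close paralogs whose reads could be shared.

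SNORD72, a C/D box small nucleolar RNA, was an abundant row that fell, and its sequence is shown because its position bears on what was counted. It lies at chromosome 5, 40832656 to 40832735, inside the span of RPL37 (40825262 to 40835222) in GRCh38.p14. Capitals mark CTGA, the letters of a D box.
SNORD72: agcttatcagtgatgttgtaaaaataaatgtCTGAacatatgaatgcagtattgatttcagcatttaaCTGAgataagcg
The SNORD72 row had 13167, 12587 and 12720 CPM in the controls, 16057 in EA20TMZ380 and 10548 in EA20TMZ580 (log2 fold change -0.61, edgeR adjusted p = 0.0132), called in 7 of 11 alternatives. The RPL37 row had 36, 22 and 23 counts in the controls. The libraries were made from the 3′ ends of polyadenylated RNA, and the assignment of reads that overlap several features, or their strand, is not given in the sources used here, so reads of SNORD72 and of RPL37 cannot be told apart here.

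Transcripts of the mitochondrial genome encode subunits of the respiratory chain and ATP synthase and are cut from long precursors. They took 48.6, 48.4 and 49.1% of all counts in the controls, 57.4% in EA20TMZ380 (Wilson 95% interval 57.2 to 57.5) and 58.7% in EA20TMZ580 (58.6 to 58.9). The share therefore differed by 1.37 percentage points between the combinations, while both lay above every control. The intervals cover counting error only. Of the 13 genes, 1 rose and 2 fell between the concentrations, where 2.92% of all tested transcripts rose and 6% fell, and their median log2 fold change was -0.18, beside -0.12 for all transcripts. The sign of this median depended on scaling.

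ATP8, a small subunit of ATP synthase (mitochondrial positions 8366 to 8572), had 6065, 5642 and 5107 counts in the controls, 2491 in EA20TMZ380 and 5117 in EA20TMZ580. Its log2 fold change between the concentrations was 0.95 (SE 0.15, edgeR adjusted p = 0.000776), called in all 10 alternatives of the tally that gave a value. As a share of mitochondrial counts it was 4.63, 4.48 and 3.65% in the controls, 1.18% in EA20TMZ380 and 2.63% in EA20TMZ580. ATP8 overlaps ATP6 on the same precursor, and ATP8 counts per ATP6 count were 1.09, 1.08 and 0.853 in the controls, 0.328 in EA20TMZ380 and 0.649 in EA20TMZ580. The 2 rows thus changed unequally, and ATP6 itself was not called (log2 fold change -0.04).

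ND4L, a subunit of complex I that overlaps ND4, ran the opposite way. It had 3792, 4687 and 5043 counts in the controls, 19007 in EA20TMZ380 and 12843 in EA20TMZ580, with a log2 fold change between the concentrations of -0.66 (SE 0.16, edgeR adjusted p = 0.018). Its counts per ND4 count were 0.204, 0.284 and 0.319 in the controls, 0.656 in EA20TMZ380 and 0.473 in EA20TMZ580. In ATP8 and ND4L alike, EA20TMZ380 lay farther from the controls than EA20TMZ580. ND3, another complex I subunit, had 16026, 16123 and 19328 counts in the controls, 19641 in EA20TMZ380 and 14269 in EA20TMZ580 (log2 fold change -0.55, edgeR adjusted p = 0.018), and was called in 5 of the 10 alternatives that gave a value. Its place relative to the controls depended on the measure. In CPM, EA20TMZ380 was above every control and EA20TMZ580 below every control, with 66635 and 45499 against 54810, 58652 and 64342. As a share of mitochondrial counts both were below the controls, with 9.32 and 7.35% against 12.2, 12.8 and 13.8%. ND1 was at 2.34, 2.82 and 3.09% of mitochondrial counts in the controls, 6.05% in EA20TMZ380 and 5.12% in EA20TMZ580, and did not pass between the concentrations (edgeR adjusted p = 0.0971), except in 1 alternative. How reads in the overlaps of ATP8 with ATP6 and of ND4L with ND4 were counted is not given in the sources used here.

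**Figure D3:**
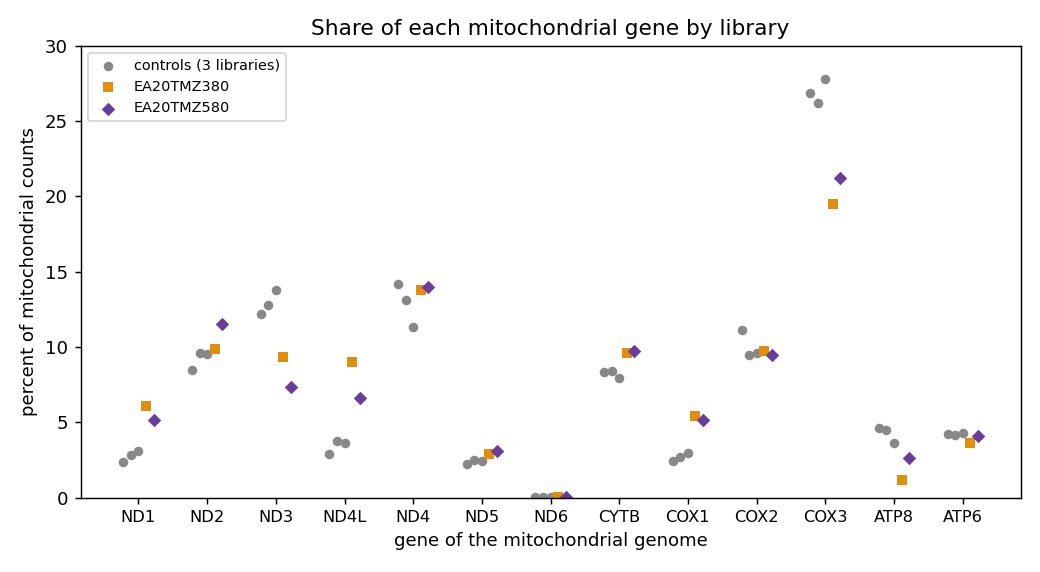
Percent of the mitochondrial counts of each library (y axis) on each of the 13 protein genes of the mitochondrial genome (x axis), with 3 controls and 1 library of each combination. ATP8 goes from 1.18% in EA20TMZ380 to 2.63% in EA20TMZ580, and ND4L from 9.02% to 6.61%.

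Groups of genes linked to the proposed actions of TMZ and EA held few tested transcripts. Few tested members need not mean low expression, since of 86 genes of the cytosolic ribosome, which every cell uses, 9 had any count. Of 68 DNA repair genes in the table, 3 were tested and 0 were called, a number too small to set beside the 8.91% of all transcripts. TDP2, which removes protein adducts from DNA ends, had 63, 61 and 57 counts in the controls, 172 in EA20TMZ380 and 93 in EA20TMZ580. It was above the controls in both combinations, and the difference between them was -0.98 on the log2 scale (95% interval -1.74 to -0.22, edgeR adjusted p = 0.104, passed in 2 alternatives). FANCG and ALKBH3, of the Fanconi pathway and of alkylation repair, had differences of -0.28 and -0.21. The 95% intervals were -0.74 to 0.19 for FANCG and -1.26 to 0.84 for ALKBH3. The only p53 target tested, TNFRSF10D, a decoy receptor of TRAIL, was below the controls in both combinations with 376 and 309 counts against 1174, 1127 and 1194 in the controls, and its difference between the concentrations was -0.37 (edgeR adjusted p = 0.194).

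The 2 tubulins and 2 mitotic genes tested showed 0 calls between the concentrations, and 8.91% of 4 transcripts is less than 1. TUBB2B, a beta-tubulin of neural cells, had 54, 45 and 29 counts in the controls, 35 in EA20TMZ380 and 10 in EA20TMZ580, a log2 fold change of -1.88 that just missed the threshold (95% interval -3.13 to -0.64, edgeR adjusted p = 0.0529). It passed in 2 of the alternatives, with DESeq2's size factors (edgeR adjusted p = 0.0379) and without control 3 (0.0307). TUBB6, another beta-tubulin, had 227, 196 and 242 counts in the controls, 164 and 127 in the combinations, a log2 fold change of -0.46 (95% interval -0.95 to 0.03). Against the controls TUBB6 and TUBB2B were called in EA20TMZ580 (edgeR adjusted p = 0.00187 and 0.0038) and not in EA20TMZ380 (0.0765 and 0.608). PLK1, a mitotic kinase, and NDC80, a kinetochore protein, had log2 fold changes of -0.43 (95% interval -0.91 to 0.05) and -0.32 (-0.81 to 0.17). NSD3, a histone methyltransferase, was below the controls to a like degree in both combinations, with 676 and 740 counts against 1079, 988 and 972, and its difference between them was 0.04 (95% interval -0.30 to 0.38).

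**Figure D4:**
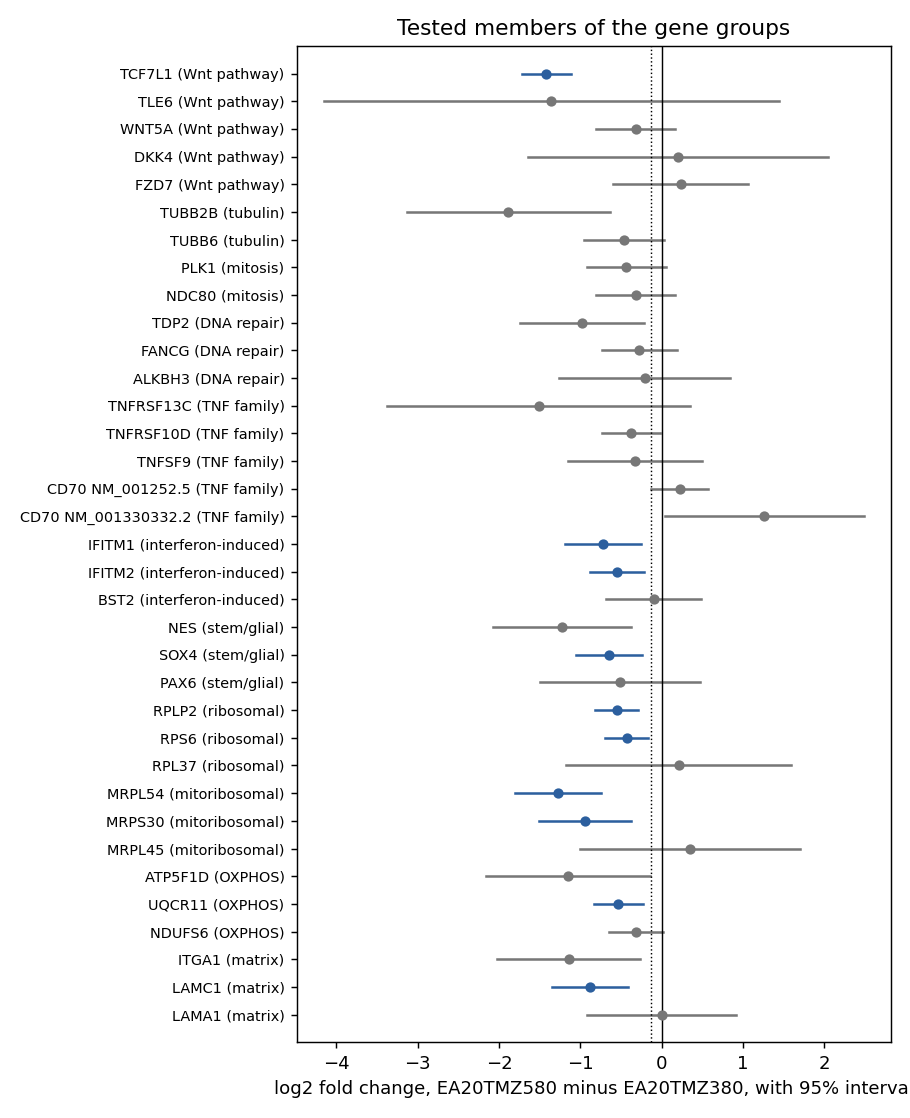
Log2 fold change between EA20TMZ580 and EA20TMZ380 (x axis) with its 95% interval for the tested members of 11 gene groups (y axis, the group in parentheses). Blue marks a call lower in EA20TMZ580, grey no call, and the dotted line the median of all 617 transcripts at -0.12. TCF7L1 at -1.41 is the only called member of the Wnt pathway, and the tubulins, mitotic and DNA repair genes hold 0 calls here, though TUBB2B and TDP2 each passed in 2 alternatives.

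Of 108 transcripts annotated as lncRNA, 0 rose and 5 fell, beside 2.92% and 6% of all tested transcripts. The falls included SAMMSON and YPEL3-DT, a transcript divergent from YPEL3, with 122, 150 and 188 counts in the controls, 118 in EA20TMZ380 and 53 in EA20TMZ580 (log2 fold change -1.24, edgeR adjusted p = 0.0289). LINC02022 fell by 0.52 on the log2 scale and was called in 5 of 11 alternatives. Of 35 antisense and divergent RNAs, 1 fell, and of 9 zinc finger genes 0 were called, with medians of -0.22 and -0.36. The transcripts at the edge of the filter were small: TRIO, just inside with a mean of 10 counts, had 10, 14 and 11 counts in the controls and 9 and 6 in the combinations, and MYO1E, just outside with a mean of 9.8, had 7, 9 and 19 and then 7 and 7.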

How the data were processed

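The authors made QuantSeq libraries, which read the 3′ ends of transcripts, from U-87 cells. The authors deposited counts per RefSeq transcript, whole numbers without normalization. The submitters' processing notes name HISAT2, HTSeq and the build hg38, and the settings for strand, ambiguous and multiply mapped reads are not given in the sources used here. Groups came from the treatment labels.

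Counts were fitted with edgeR 4.0.16 in R 4.3.3 (TMM, glmQLFit, quasi-likelihood F-test, Benjamini-Hochberg over all 617 transcripts, threshold 0.05) on the 5 libraries, with a mean of at least 10 counts. The residual degrees of freedom were 2 before sharing, the prior added 18.5, and the biological coefficient of variation was 0.168. The 37 falls and 18 rises rest on 1 library per side. Symbols and positions came from RefSeq GRCh38.p14, matched by accession. The SNORD72 sequence came from GENCODE.

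Members and gene lists were chosen with earlier results of these data known. Named genes were the 12 largest called rises and 12 largest called falls with a symbol, the 13 mitochondrial protein genes, FZD7, WNT5A, TCF7L1, DKK4, TUBB6, TUBB2B, NSD3, NDC80 and PLK1, and called list members. 1 gene that this rule picks is not reported here. Other genes in the text were picked from the calls and the lists after their values were seen. Lists for ER stress, NRF2 targets and immediate early genes had 0 tested transcripts. For the rest, hypoxia (MIR210HG), C3, STK11, 3 histones, 5 TNF family transcripts and 4 small RNA host genes had 0 calls between the concentrations with the settings above. These lists are too small to set beside the 8.91% called of all tested transcripts.

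Alternatives were DESeq2 size factors, the Wald test of DESeq2 1.42.0, limma-voom (limma 3.58.1), other filters, all 9 libraries, no mitochondrial transcripts, a limit of 1 on the size of the log2 fold change, each control left out and, added after seeing the data, library totals without TMM, each control left out with the TMM factors kept, and the TMM factors of all 9 libraries. Tested on simulated data for this comparison (598 transcripts, 194 changed), edgeR recovered 30.9% of 2-fold and 80.4% of 4-fold changes, and 3.57% of calls were false. The simulated lone libraries were given the spread of the real fit, and only EA20TMZ580 was changed. These rates therefore cannot give the share of false calls between the real lone libraries. Plots were drawn with matplotlib 3.10.9.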

Additional observations from a re-analysis of the deposited data

How the results depend on the processing

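The 55 transcripts called between the concentrations became 20 with the Wald test of DESeq2 (68 at an unadjusted p under 0.05), 28 with no filter, 23 with the filter at a mean of 50 (19 rises and 4 falls), 19 with a limit of 1 on the size of the log2 fold change, and 35 to 74 with 1 control left out and TMM repeated. With the scaling kept, a choice made after seeing the data, it became 58, 34 and 2 without controls 1, 2 and 3. In these fits 1 residual degree of freedom was left, and the prior degrees of freedom that edgeR estimated moved from 18.5 to 6.49, to no finite value and to 5.01. The TMM factors of all 9 libraries in the same fit gave 55, of which 40 were shared. With limma-voom 45 were called, with DESeq2's size factors 58, and without mitochondrial transcripts 42 (18 rises and 24 falls). Leaving out the fold limit, 12 of the 55 were called in all other alternatives that gave a value (8 rises and 4 falls) and 9 falls in 3 or fewer. Against the controls, the Wald test gave 85 transcripts in EA20TMZ380 and 72 in EA20TMZ580, and the fold limit 88 and 86. The count of transcripts 2-fold apart was 21 with the filter at a mean of 50.

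The median of the mitochondrial genes was 0.0226 with the filter at a mean of 50, -0.0375 with all 9 libraries and with any control left out, and 0.0562 with library totals. For antisense RNAs it was 0.103, -0.0722, -0.0722 and 0.0214 under the same alternatives, and for zinc finger genes -0.12 with library totals. Signs turned for uncalled mitochondrial genes. ATP6 was at 0.0138 with DESeq2's size factors and Wald test, 0.0505 with no filter, 0.17 with the filter at a mean of 50, 0.11 with all 9 libraries or 1 control left out, and 0.20 with library totals. In the order of the filter at a mean of 50, all 9 libraries or 1 control left out, and library totals, COX3 was at 0.116, 0.0563 and 0.15 and ND5 at 0.104, 0.0442 and 0.138. With the filter at a mean of 50 and with library totals, ND4 was at 0.0226 and 0.0562 and CYTB at 0.0191 and 0.0526, and COX2 was at 0.0018 with library totals. Each alternative that scales the libraries differently moves all transcripts together, and the median of all of them went from -0.12 to 0.02 with all 9 libraries or 1 control left out, to 0.0047 over the transcripts that passed the filter at a mean of 50 and to 0.12 with library totals. No paired analysis was possible because each combination had 1 library and the numbers of the controls pair no libraries. Depth limits the rows of few counts, and treatments without a second library leave their own spread unmeasured.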

Other observations

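For 9 genes there were 2 tested transcripts each. PELI2 was called on both, LHX3 on 1, and 7 genes on neither. CD70, a TNF family ligand, had 415, 397 and 420 counts in the controls, 619 in EA20TMZ380 and 768 in EA20TMZ580 on its main transcript, above the controls in both combinations. Its second transcript had 53, 21 and 28 counts in the controls, 16 in EA20TMZ380 and 41 in EA20TMZ580. The difference between the concentrations was 0.22 and 1.26 on the log2 scale, neither called (edgeR adjusted p = 0.44 and 0.198; 1 of the transcripts passed in 1 alternative). LURAP1L was higher in the combinations on both transcripts: 68, 59 and 55 counts in the controls against 395 and 251, and 5, 5 and 3 against 42 and 20. It was not called between the concentrations, with log2 fold changes of -0.74 and -1.15 (edgeR adjusted p = 0.0526 and 0.314).

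STK11, the LKB1 kinase upstream of AMPK, had 203, 169 and 184 counts in the controls, 106 in EA20TMZ380 and 179 in EA20TMZ580. It had the order seen in TLN1 and PELI2 but was not called between the concentrations (log2 fold change 0.67, edgeR adjusted p = 0.106), although it passed in 5 of 11 alternatives. C3, the central complement component, was below the controls in both combinations with 341 and 342 counts, against 511, 609 and 493, and differed between them by -0.09 on the log2 scale (95% interval -0.52 to 0.35). LAMA1, the laminin alpha 1 chain, was above the controls in both with 47 and 50 counts, against 16, 17 and 22.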
